A study of Komagataella phaffii with 26 samples.

Results

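The early response of *Komagataella phaffii* to alkalinization was compared between cells growing on glucose and cells growing on glycerol, 15 min after the shift from pH 5.5 to pH 8.0. The comparison used 10 of the 26 RNA-seq libraries of the study: 2 of glucose at 0 min, 2 of glucose at 15 min, 2 of glycerol at 0 min and 4 of glycerol at 15 min. Expression is given as RPKM, read counts divided by the length of the gene model and by the number of mapped reads. For each of 5034 genes, out of 5040 in the table, the change from 0 to 15 min on glycerol was subtracted from the change on glucose, on the log2(RPKM + 1) scale. A positive difference means that a gene rose more, or fell less, on glucose, and a negative difference means the opposite. On this scale the change of genes with low RPKM is understated.

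All cells were wild-type X-33, a strain used to produce recombinant proteins, kept at 28 °C in rich YP medium with 20 g/L of either carbon source. At an early exponential density the cells were collected and put into fresh medium with 50 mM TAPS buffer, at pH 5.5 for the sample at 0 min and at pH 8.0 for the stressed culture. The study describes the replicates as biological. No culture held at pH 5.5 was sampled at 15 min, so the change on either carbon source also contains handling, fresh medium and elapsed time. Among these 10 libraries the glucose ones carry one series of library codes and the glycerol ones another, so codes and carbon source cannot be told apart within them. A glycerol course to pH 8.2 carries the same series of codes as the glucose libraries, but its pH differs. RPKM values are shares of a library, so a lower share of a gene and a larger share of all others cannot be told apart either.

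Glycerol enters metabolism at the level of the triose phosphates, and cells living on it make hexose phosphates by gluconeogenesis, whereas glucose feeds glycolysis from the top and represses many genes for other carbon sources. An alkaline medium makes iron and phosphate less available and weakens the proton gradient that drives uptake of many nutrients. Yeasts take up iron in a reductive way, with ferric reductases of the Fre family, the oxidase Fet3 and the permease Ftr1, or as siderophores, small iron carriers that are imported whole.

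The 10 libraries rested on about 16580000 to 20060000 reads, of which 92.5 to 93.9% lay in genes. These depths were inferred from the whole-number steps of the RPKM values, which gave whole reads within 0.01 for at least 99.94% of the values of each library. At 0 min the 8 genes chosen to check the carbon source label (*GUT1*, *PCK1*, *FBP1* and *JEN1*, lower on glucose; *PGK1*, *TPI1*, *ENO1* and *GLK1*, higher on glucose) all lay apart in the direction of the label. *PHO89* and *ZRT1*, genes that respond to high pH, were above their 0 min values in all libraries at 15 min on both carbon sources. The study had already reported *GUT1*, *PCK1*, *JEN1*, *PHO89* and *ZRT1* in these directions. The check of the labels is therefore not independent of it. The 4 glycerol libraries at 15 min formed 2 pairs. Replicates 1 and 2 differed from each other with an SD of 0.12 over genes (log2 scale) and replicates 3 and 4 with an SD of 0.18, but the SD across the pairs was 0.22 to 0.25. In 25 genes the mean of replicates 1 and 2 was at least 1 above that of replicates 3 and 4 on the log2 scale, and in 2 genes at least 1 below. The first pair has library codes outside the run of the other glycerol libraries, and what sets the pairs apart was not tested.

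Across genes the 2 responses were alike, with a Pearson r of 0.83 between the change on glycerol and the change on glucose (5034 genes, which are not independent replicates). Even so, the difference passed an adjusted p of 0.05 in 302 genes. It was higher on glucose in 105 genes, or 2.09% of those tested, and lower in 197, or 3.91%. The median difference was 0.56 in the first set and -0.67 in the second, against -0.01 over all genes, and 14 and 34 genes differed by at least 1. At an adjusted p of 0.05 on each side, the 105 genes split into 44 that fell on glycerol alone, 36 that rose on glucose alone, 14 that fell on both, 5 that rose on both, and 6 that moved in opposite directions, down on glycerol. Of the 197 genes, 68 rose on glycerol alone, 50 fell on glucose alone, 39 rose on both, 24 fell on both, and 16 moved in opposite directions, up on glycerol. The plot of the glucose change against the glycerol change shows the 302 genes on both sides of the line of equal change.

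**Figure D1:**
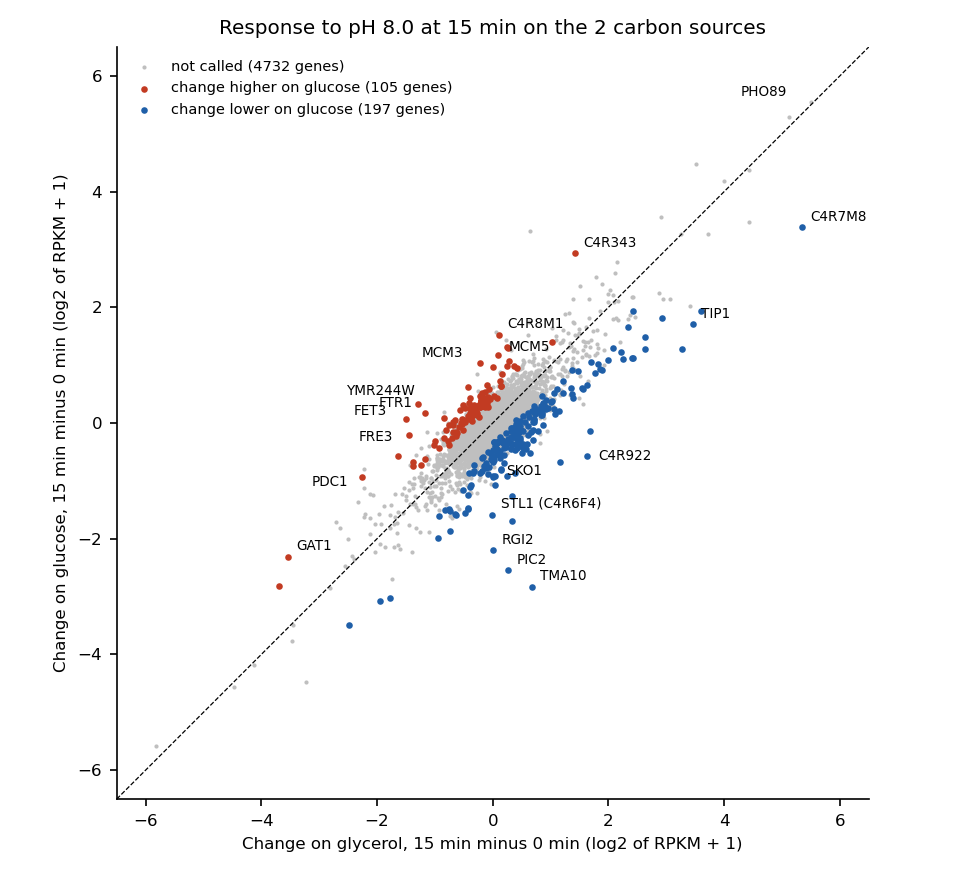
Each point is 1 of 5034 genes, with its change from 0 to 15 min at pH 8.0 on glycerol (x axis) and on glucose (y axis), both as log2(RPKM + 1). Most genes lie near the dashed line of equal change, the 105 red genes lie above it, and the 197 blue genes lie below it, with *TMA10*, *PIC2* and *RGI2* far below the line near a glycerol change of 0.

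The number of genes called rests on the groups of 2 libraries. It was 109 without glycerol 0 min replicate 1, 135 without glycerol 0 min replicate 2, 175 without glucose 0 min replicate 1, 116 without glucose 0 min replicate 2, 176 without glucose 15 min replicate 1 and 92 without glucose 15 min replicate 2. With only replicates 1 and 2 of glycerol at 15 min it was 373 and with only replicates 3 and 4 it was 143, and 120 genes were called with all 4 libraries and with either pair. None of the 302 genes changed sign with a pair, but each pair was part of the data that called them, so a reversal was unlikely from the start. With the glycerol course to pH 8.2, which shares the code series of the glucose libraries, in place of the course to pH 8.0, 27 genes were higher and 63 lower. Of 46 genes named below by rank or called in a list, 18 lost their call in that setting and 28 kept it, among them *FET3* (1.50, adjusted p = 0.000101) and *PIC2* (-3.30, adjusted p = 3.12e-06). Each loss is given beside its gene, as is a loss with the 0 min libraries of both glycerol courses pooled. A gene left with a single library in a group was assumed to vary there as in the other groups.

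The gene lists used next were drawn from the genes that the study had called on these samples, so a count over a list is not independent evidence of its direction. The background is the share of all genes called: 2.09% higher and 3.91% lower. Calls were more common among the genes with a description, which are those the study had called. These held 33 of the 105 higher and 87 of the 197 lower calls. A list share above the background over all genes is therefore not evidence that the list stands out. In the list of iron, copper and zinc transport, 5 of 22 genes were higher on glucose and none was lower, and the median difference of the list was 0.05. The 5 genes were *FET3*, *FTR1*, *FRE3*, *FRE2* (C4R7S4) and *ZRT2*, which are parts of reductive iron uptake apart from the low-affinity zinc transporter Zrt2.

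*FET3* (C4R1S1, chromosome 2, 1505101 to 1506990 of assembly ASM2700v1) encodes the iron oxidase. Its RPKM on glycerol was 362.9 and 376.5 at 0 min, and 124, 116.5, 143.2 and 135.5 at 15 min. On glucose it was 405.5 and 383.4 at 0 min, and 378.3 and 456.1 at 15 min. The glycerol libraries at 15 min lay below all others, while the glucose libraries at 15 min overlapped those at 0 min. The change was -1.51 ± 0.11 (SE) on glycerol and 0.08 ± 0.13 on glucose, a difference of 1.58 ± 0.17 (limma adjusted p = 2.07e-05). *FTR1* (C4QX98, chromosome 1, 1485260 to 1486357) encodes the permease that works with Fet3. It went from 189.7 and 198.8 to 94.37, 90.56, 79.62 and 77.39 RPKM on glycerol, and from 216.1 and 196.1 to 237.6 and 226.7 on glucose. Here too the groups on glycerol did not overlap, and the difference was 1.35 ± 0.32 (adjusted p = 0.0173). The *FTR1* call was lost without glycerol 0 min replicate 1 or 2, glucose 0 min replicate 2, or glucose 15 min replicate 1 or 2 (difference 1.28 to 1.39, adjusted p = 0.0554 to 0.071), and with the 0 min libraries of both glycerol courses (1.11, adjusted p = 0.0631).

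Of 5 ferric reductase genes in the list, 2 were called, *FRE3* and 1 of the *FRE2* genes. The others were *FRE1* (-0.55, adjusted p = 0.484), *FRE2* (C4QZH4, -0.24, adjusted p = 0.563) and *FRE8* (-0.01, adjusted p = 0.994). *FRE3* (C4R794, chromosome 4, 486364 to 488484) was at 13.45 and 13.26 RPKM at 0 min on glycerol and at 4.157, 4.82, 4.604 and 3.583 at 15 min. On glucose its values were 24.43 and 20.06, then 18.64 and 19.54, so that the glucose libraries were above the glycerol libraries at both times. The difference was 1.24 ± 0.22 (adjusted p = 0.00256). *FRE2* (C4R7S4, chromosome 4, 797604 to 799730) rose on glucose instead, from 14.82 and 10.94 to 38.79 and 28.23 RPKM. On glycerol it stood at 9.657 and 9.716, then at 11.33, 10.28, 12.7 and 12.67, a change of 0.25 (adjusted p = 0.112), and the difference was 1.06 ± 0.19 (adjusted p = 0.00349). For *ZRT2* (C4R846), the RPKM of 272.7 and 272.5 on glycerol fell to 160.3, 166.7, 195.5 and 169.2, and on glucose it was 264.6 and 312.1, then 279.9 and 316.3, a difference of 0.71 ± 0.13 (adjusted p = 0.00315).

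The other 17 genes of the list did not pass the test of the difference, including those with the largest changes. The siderophore transporter gene *SIT1* (C4R573) rose by 3.99 on glycerol and 4.18 on glucose (difference 0.19 ± 0.49, adjusted p = 0.865), and the high-affinity zinc transporter gene *ZRT1* rose by 4.43 and 4.37 (difference -0.06 ± 0.18, adjusted p = 0.885). The siderophore transporter gene *ARN1* was at 0.24 on glycerol and 0.12 on glucose, neither past the test. The vacuolar iron importer gene *CCC1* fell by 2.81 and 2.85 (difference -0.04 ± 0.55, adjusted p = 0.983). At later times, given as means with no test, *FET3* stood at 98.39 RPKM at 30 min on glycerol and 112.8 on glucose, and *FTR1* at 69.76 and 107.3. *ZRT2* stood at 103.3 and 110.5. The low values that *FET3* and *ZRT2* had on glycerol at 15 min were thus seen on glucose at 30 min. In the glycerol course to pH 8.2, which has libraries of its own, *FET3* fell by 1.42 at 15 min and *FTR1* fell by 1.43.

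**Figure D2:**
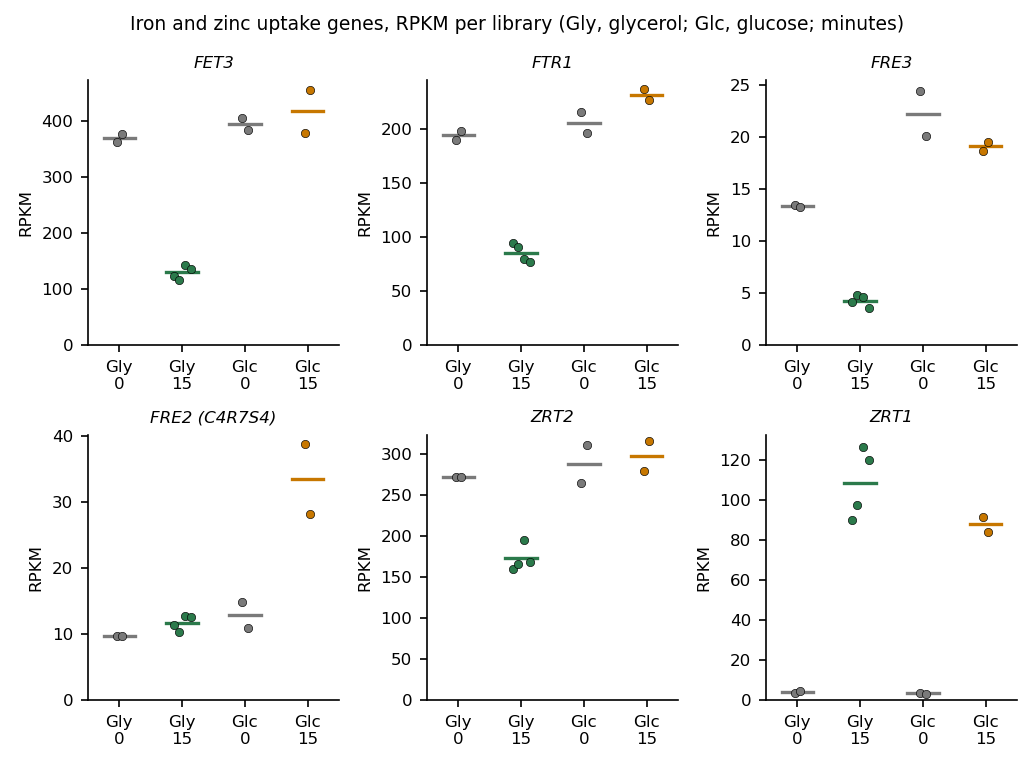
RPKM (y axes, from 0) of 6 iron and zinc uptake genes in the 10 libraries, by carbon source and minutes (x axes); points are libraries and bars are group means. *FET3*, *FTR1*, *FRE3* and *ZRT2* are low in the 4 glycerol libraries at 15 min, *FRE2* (C4R7S4) is high in the 2 glucose libraries at 15 min, and *ZRT1* is high at 15 min on both carbon sources.

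In central carbon metabolism, the pyruvate decarboxylase gene fell much further on glycerol. *PDC1* (C4R3T2, chromosome 3, 382287 to 383969), whose product turns pyruvate towards ethanol, fell from 3562 and 4000 RPKM to 839.1, 820.2, 740.6 and 752.1 on glycerol. On glucose it fell from 5360 and 6576 to 2736 and 3513. No library at 15 min overlapped those at 0 min on the same carbon source, and the lowest glucose library at 15 min was above all glycerol libraries of that time. The changes were -2.26 and -0.94, and the difference was 1.32 ± 0.19 (adjusted p = 0.000458). Of 15 genes of glycolysis and fermentation, 2 were higher, *PDC1* and the phosphofructokinase subunit gene *PFK2* (0.54 ± 0.14, adjusted p = 0.0245), and none was lower, with a list median of 0.25. The *PFK2* call was lost without glycerol 0 min replicate 1 or 2, glucose 0 min replicate 1, or glucose 15 min replicate 1 or 2 (0.36 to 0.59, adjusted p = 0.0581 to 0.133), with both glycerol courses at 0 min (0.34, adjusted p = 0.367) and with the course to pH 8.2 (0.43, adjusted p = 0.186). *GLK1*, named after the glucokinase gene, fell by 1.45 on glycerol and 1.16 on glucose, a difference of 0.29 (adjusted p = 0.302). *GPM1* (C4R5P4), of phosphoglycerate mutase, was at -0.05 and 0.07.

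Genes for glycerol uptake fell on glucose. *STL1* (C4R6F4, chromosome 3, 2072446 to 2074149) is annotated as a glycerol and proton symporter. It went from 45.46 and 41.96 to 12.11 and 15.67 RPKM on glucose, while the glycerol values were 22.69 and 25.16, then 21.78, 22.18, 22.61 and 29.38. The glucose libraries were thus above all glycerol libraries at 0 min and below them at 15 min, and the difference was -1.59 ± 0.20 (adjusted p = 0.000124). A second *STL1* gene (C4R6H9) fell by 0.63 on glycerol and 1.59 on glucose (difference -0.96 ± 0.14, adjusted p = 0.000539), and the *STL1* gene C4QVV9 had a difference of -0.82 (adjusted p = 0.0538). The glycerol kinase gene *GUT1* rose by 1.34 on glycerol, and its difference of -0.86 had an adjusted p of 0.0833. With only replicates 1 and 2 of glycerol at 15 min the *GUT1* difference was -1.17 (adjusted p = 0.00918). With only replicates 3 and 4 it was -0.54 (adjusted p = 0.253). In the list of gluconeogenesis, glyoxylate, glycerol and lactate use, 2 of 13 genes were lower on glucose, both of them *STL1* genes, and none was higher (median -0.30). *PCK1* of gluconeogenesis fell by 2.23 on glycerol and 1.13 on glucose, with a difference of 1.10 (adjusted p = 0.0943).

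Several of the lowest differences belonged to genes that were high on glucose before the shift. *TMA10* (C4R7T1, chromosome 4, 809530 to 809841), which encodes a protein associated with ribosomes, fell from 81.22 and 114 to 15.5 and 10.38 RPKM on glucose. On glycerol it was at 6.53 and 10.55, then at 23.46, 18.86, 7.122 and 11.6. The glucose values at 15 min therefore lay within the range of the glycerol values, and the difference was -3.51 ± 0.61 (adjusted p = 0.00234). *RGI2* (C4QX11, chromosome 1, 1318767 to 1319300), known in *Saccharomyces cerevisiae* for a role in respiratory growth, fell from 191.9 and 331.8 to 56.94 and 51.97 on glucose. On glycerol its values were 31.25 and 39.86, then 45.11, 37.95, 27.7 and 33.43, and the difference was -2.20 ± 0.29 (adjusted p = 0.000189). *PIC2* (C4R819, chromosome 4, 960926 to 961780), a mitochondrial phosphate carrier gene, went from 65.19 and 49.21 to 9.27 and 8.618 on glucose, and from 15.52 and 18.22 to 19.61, 18, 21.75 and 22.5 on glycerol. Its order turned between the times. Above all glycerol libraries at 0 min, the glucose libraries were below all of them at 15 min, with a difference of -2.80 ± 0.28 (adjusted p = 2.07e-05). The short gene C4QXV2, of a hypothetical protein, fell from 7.903 and 8.43 to 2.253 and 1.476 on glucose. Its difference of -2.02 (adjusted p = 0.0176) was no longer called without glycerol 0 min replicate 1 or 2, glucose 0 min replicate 2, or glucose 15 min replicate 2 (-2.05 to -1.82, adjusted p = 0.0603 to 0.0959), with both glycerol courses at 0 min (-1.62, adjusted p = 0.0763) or with the course to pH 8.2 (-1.32, adjusted p = 0.275).

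The reverse was seen in genes that were low on glucose before the shift. *MCM3* (C4QZT2, chromosome 2, 273138 to 275783) and *MCM5* (C4R243, chromosome 2, 1747786 to 1749981) encode subunits of the replicative DNA helicase. On glucose *MCM3* rose from 27.79 and 25.31 to 53.99 and 56.7 RPKM, and *MCM5* from 14.87 and 12.72 to 32.57 and 32.08. On glycerol *MCM3* stood at 73.96 and 62.93, then at 57.85, 57.21, 62.67 and 56.91, and *MCM5* at 37.41 and 32.14, then at 35.64, 36.62, 39.75 and 36.47. Glucose libraries were below all glycerol libraries at 0 min and near them at 15 min, and the differences were 1.25 ± 0.17 for *MCM3* (adjusted p = 0.000333) and 1.08 ± 0.16 for *MCM5* (adjusted p = 0.000458). With the glycerol course to pH 8.2 in place of that to pH 8.0, the differences were 0.74 (adjusted p = 0.0484) and 0.63 (adjusted p = 0.0686). The replication gene *CDC6* and the cyclin gene *CLB3* were chosen after their values were seen, so they are no evidence for replication genes as a group. Their differences were 0.96 and 0.80 (adjusted p = 0.00539 and 0.0149). With the course to pH 8.2 these were 0.79 (adjusted p = 0.0447) and 0.52 (adjusted p = 0.253), so *CLB3* lost its call. *YMR244W* (C4R7H1), of unknown function, stood at 455.3 and 415.3 RPKM at 0 min on glycerol against 103.9 and 107.3 on glucose. It fell on glycerol to 179.7, 159.7, 219 and 152.5 and was at 118 and 150.6 on glucose, giving the highest difference among the called genes, 1.63 ± 0.22 (adjusted p = 0.000294).

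**Figure D3:**
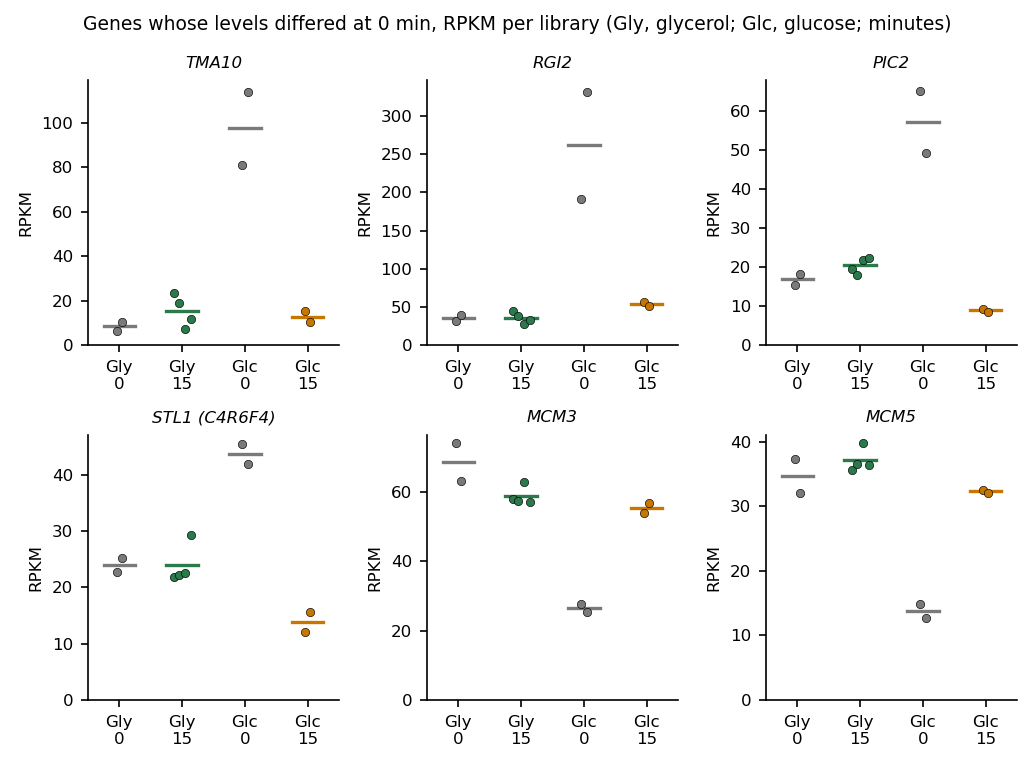
RPKM (y axes, from 0) of 6 genes in the 10 libraries, by carbon source and minutes (x axes); points are libraries and bars are group means. *TMA10* and *RGI2* start high on glucose and come close to the glycerol values, *PIC2* and *STL1* (C4R6F4) start high on glucose and end below the glycerol values, and *MCM3* and *MCM5* start low on glucose.

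Levels before and after the shift were compared as well. At 0 min, 53 genes (1.05%) were at least 1 higher on glucose on the log2 scale and 16 (0.318%) at least 1 lower, at an adjusted p below 0.05 and an unadjusted p below 0.01. At 15 min the numbers were 38 (0.755%) and 26 (0.516%). These comparisons share libraries with the difference of changes and are given beside it. Among the 105 genes with a higher difference, the levels were closer at 15 min than at 0 min in 83 and further apart in 22, and among the 197 with a lower difference these numbers were 114 and 83. The genes were called on the change of this gap in the same libraries, and the share over all genes was not computed. These counts therefore do not show that called genes converge more than others. Of all 302 genes, 24 were called different at 0 min, 22 at 15 min and 1 at both times.

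By the same thresholds, the rises at 15 min on glycerol numbered 158 (3.14% of the genes tested) and the falls 123 (2.44%). The rises on glucose numbered 131 (2.6%), and falls there made up 2.82%. Among the 197 genes with a lower difference, 23 rose by at least 1 on glycerol and did not pass these thresholds on glucose, and 17 rose on both. Several of the latter are hypothetical protein genes with steep rises. C4R7M8 (chromosome 4, 727983 to 728618) went from 3.463 and 4.769 to 197.6, 227.1, 239.1 and 162.8 RPKM on glycerol, and from 5.752 and 4.411 to 52.98 and 72.64 on glucose. All its glucose libraries at 15 min were thus below all glycerol libraries of that time, and the difference was -1.96 ± 0.52 (adjusted p = 0.0303). C4QW56 went from 50.4 and 58.53 to 630.8, 659.4, 579.9 and 821.9 on glycerol and from 59.63 and 59 to 214.5 and 243.7 on glucose, a difference of -1.67 ± 0.25 (adjusted p = 0.000675). *TIP1* (C4R859), named after a cell wall mannoprotein gene of *S. cerevisiae*, rose by 3.46 on glycerol and 1.71 on glucose (difference -1.74 ± 0.28, adjusted p = 0.00114).

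The calls of 3 hypothetical protein genes with large differences depended on single libraries. The call of C4R7M8 was lost without glycerol 0 min replicate 1 or 2, glycerol 15 min replicate 2, or any 1 of the 4 glucose libraries (-2.18 to -1.73, adjusted p = 0.052 to 0.121), and with the course to pH 8.2 (-1.58, adjusted p = 0.211). C4R2I5 rose by 3.28 on glycerol and 1.29 on glucose, and its call (difference -1.99 ± 0.58) was lost without any 1 library other than glycerol 15 min replicate 3 (-2.26 to -1.72, adjusted p = 0.0759 to 0.181). With all libraries the adjusted p of C4R2I5 was 0.05 after rounding, at the threshold itself. The C4R2I5 call was also lost with 5 in place of 1 added to the RPKM (-1.87, adjusted p = 0.0544). So it was with no filter on RPKM (adjusted p = 0.0522) and with no trend in the variance (adjusted p = 0.0534). Without replicates 1 and 2 of glycerol at 15 min it was at -1.92 (adjusted p = 0.129). C4R5J4 rose by 1.68 on glycerol and stood at -0.14 on glucose (difference -1.82 ± 0.49, adjusted p = 0.0322). Its call was lost without glycerol 0 min replicate 1 or 2, glycerol 15 min replicate 4, or any 1 of the 4 glucose libraries (-2.02 to -1.62, adjusted p = 0.0522 to 0.129), and with replicates 1 and 2 as the only glycerol libraries at 15 min (-1.48, adjusted p = 0.0766).

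Opposite directions on the 2 carbon sources were seen in C4R922 and *SKO1*, but not in C4R8M1 and C4R974. C4R922 (chromosome 4, 1559358 to 1561235), described as a myo-inositol transporter, rose from 15.25 and 16.53 to 68.62, 50.98, 41.5 and 48.43 RPKM on glycerol and fell from 13.23 and 10.55 to 8.095 and 7.235 on glucose. Its difference was -2.20 ± 0.26 (adjusted p = 5.8e-05). *SKO1* (C4QWA7, chromosome 1, 865942 to 867216) carries the name of an *S. cerevisiae* regulator of the osmotic stress response. It rose from 19.82 and 22.46 to 43.39, 50.62, 40.63 and 62.44 on glycerol and fell from 56.16 and 49.57 to 29.24 and 36.19 on glucose, with no overlap between times on either carbon source, and the difference was -1.85 ± 0.23 (adjusted p = 0.000128). C4R8M1, of a hypothetical protein, rose on glucose from 147.7 and 152.4 to 454.7 and 414.9 and was between 172.7 and 210.5 in all 6 glycerol libraries (difference 1.42 ± 0.28, adjusted p = 0.00647). In the glycerol course to pH 8.2 it rose by 1.50, and the difference from that course was 0.03 (adjusted p = 0.987). C4R974 fell by 1.63 on glycerol and 0.58 on glucose (difference 1.06 ± 0.23, adjusted p = 0.0111), but its difference was 0.09 (adjusted p = 0.96) with the course to pH 8.2, 0.61 (adjusted p = 0.388) with both glycerol courses at 0 min and 1.00 (adjusted p = 0.0527) without glycerol 0 min replicate 2.

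Transcription factors of carbon and nitrogen use differed in both directions. Of 12 regulators and sugar transporters of carbon use, 3 were lower on glucose (*GCR1*, *NRG1* and *MTH1*) and none was higher, with a median of -0.40. *GCR1*, named after the activator of glycolytic genes in *S. cerevisiae*, fell by 1.77 on glycerol and 3.03 on glucose (difference -1.25 ± 0.28, adjusted p = 0.0135), from a level higher on glucose at 0 min to a like level at 15 min (means of 3.702 RPKM on glycerol and 3.746 on glucose). *NRG1*, named after a repressor of glucose-repressed genes, fell by 2.48 and 3.49, and *MTH1*, a negative regulator of glucose sensing, rose by 1.07 on glycerol and stood at 0.25 on glucose. The 3 calls were lost without 3, 5 and 6 single libraries, with adjusted p of 0.0565 to 0.0928 for *GCR1*, 0.0571 to 0.103 for *NRG1* and 0.0679 to 0.0941 for *MTH1*. All 3 were lost with glycerol 0 min replicate 1 or glucose 0 min replicate 1 left out. With the course to pH 8.2 none of the 3 was called, at -0.44 for *GCR1* (adjusted p = 0.663), -0.61 for *NRG1* (adjusted p = 0.334) and -0.60 for *MTH1* (adjusted p = 0.248). With both glycerol courses at 0 min *GCR1* was at -0.71 (adjusted p = 0.43) and *MTH1* at -0.58 (adjusted p = 0.205). *GAT1* (C4R8G1, chromosome 4, 1218492 to 1220339), an activator of genes for poor nitrogen sources, fell from 33.37 and 31.8 to 1.497, 1.962, 1.804 and 2.415 RPKM on glycerol and from 33.71 and 32.91 to 4.693 and 7.437 on glucose. The levels overlapped at 0 min and not at 15 min, and the difference was 1.22 ± 0.27 (adjusted p = 0.0111). It was lost without glycerol 0 min replicate 1 (1.19, adjusted p = 0.0544) or glucose 15 min replicate 2 (0.94, adjusted p = 0.0919), with the course to pH 8.2 (0.69, adjusted p = 0.315) and with both glycerol courses at 0 min (0.96, adjusted p = 0.0718). *GAT1* was the only gene called, higher, among 18 of nitrogen catabolite control, ammonium and allantoin use (median -0.08). The related regulator gene *GLN3* changed by -4.48 on glycerol and -4.57 on glucose (difference -0.09, adjusted p = 0.939).

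Phosphate genes gave 1 higher and 2 lower calls among 12, with a median of -0.12. The cotransporter gene *PHO89*, the largest rise of the list, rose by 5.51 on glycerol and 5.54 on glucose (difference 0.03 ± 0.19, adjusted p = 0.946). The phosphate transporter gene *PHO84* (C4R3N5) fell by 3.70 on glycerol and 2.82 on glucose, from 542.9 and 339.7 RPKM on average at 0 min to 41 and 47.49 at 15 min. Its difference of 0.88 ± 0.17 (adjusted p = 0.00604) was not called without glucose 15 min replicate 2 (0.74, adjusted p = 0.0528). The lower genes were *PIC2*, given above, and C4QZW1. The study's text names C4QZW1 as a putative Pho4 transcription factor, while its description is of a hypothetical protein. It rose by 2.35 on glycerol and 1.66 on glucose (difference -0.69 ± 0.15, adjusted p = 0.0134). The C4QZW1 call was lost without glycerol 0 min replicate 2, glucose 0 min replicate 2 or glucose 15 min replicate 1 (-0.64 to -0.62, adjusted p = 0.0536 to 0.0671), and with the course to pH 8.2 (-0.53, adjusted p = 0.135).

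The 2 pairs of glycerol libraries at 15 min differed by at least 1 between their means in 9 of 21 oxidative stress genes, against 27 of all genes (0.536%), so that 18 of the 27 lay outside this list. The peroxiredoxin gene *TSA1* (C4R2H3) was at 10580 and 10490 RPKM in replicates 1 and 2 of glycerol at 15 min and at 2076 and 2224 in replicates 3 and 4. On glucose it was at 8563 and 7264, between the pairs. The catalase gene *CTA1* (C4R2S1) showed 1917 and 1710 in the first pair, 390.9 and 526.3 in the second, and 1415 and 1163 on glucose. Its difference was 0.96 ± 0.97 (adjusted p = 0.624) with all 4 libraries, -0.04 with the first pair alone and 1.96 with the second alone (adjusted p = 0.988 and 0.24). For the thioredoxin reductase gene *TRR2* the same 3 values were 0.73, -0.32 and 1.79. The list median was -0.004 over all 4 libraries, -0.52 with replicates 1 and 2 alone and -0.01 with replicates 3 and 4 alone.

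Of the 21 genes, 6 were nevertheless lower on glucose and none was higher, and with either pair alone 5 were lower. The methionine sulfoxide reductase gene *MXR1* (C4R3G0), which repairs oxidized methionine, rose from 118.9 and 136.5 to 788.6, 977.8, 625.2 and 826.9 RPKM on glycerol and from 408.9 and 301 to 889.2 and 810.1 on glucose. The glucose libraries were above the glycerol libraries at 0 min and within their range at 15 min. Its difference of -1.36 ± 0.28 (adjusted p = 0.00864) was lost narrowly without glycerol 0 min replicate 1, glucose 0 min replicate 1 or glucose 15 min replicate 2 (-1.29 to -1.14, adjusted p = 0.0504 to 0.0508), and with the course to pH 8.2 it was -0.65 (adjusted p = 0.4). *YHB1*, a flavohemoglobin that removes nitric oxide, fell by 0.74 on glycerol and 1.51 on glucose (difference -0.77 ± 0.14, adjusted p = 0.00315) and kept its call without each of the 10 libraries. The peroxiredoxin gene *AHP1* (C4QYS9), low in expression, rose by 0.65 on glycerol and fell by 0.53 on glucose (difference -1.17 ± 0.21, adjusted p = 0.00278), and it was not called with the course to pH 8.2 (-0.65, adjusted p = 0.203). The others were *GTT1* (-0.79), whose model overlaps another gene, *MXR2* (-0.65) and *GRX2* (-0.55). Their calls were lost without 2, 3 and 7 single libraries (adjusted p = 0.0525 to 0.0601, 0.0553 to 0.101 and 0.0522 to 0.134). With the course to pH 8.2, *MXR2* was at -0.45 (adjusted p = 0.208) and *GRX2* at -0.33 (adjusted p = 0.408), and with both glycerol courses at 0 min they were at -0.41 (adjusted p = 0.299) and -0.38 (adjusted p = 0.27).

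Among genes described as peroxisomal, C4R343 and *FOX2* rose on both carbon sources, to different extents. C4R343 (chromosome 2, 2357846 to 2358685) is described as a peroxisomal dienoyl-CoA reductase, an auxiliary enzyme of fatty acid beta-oxidation. It rose from 77.05 and 95.57 to 675.1 and 647.6 RPKM on glucose and from 228.5 and 227.2 to 669.5, 619.8, 717.2 and 481 on glycerol, so the levels differed at 0 min and overlapped at 15 min. The difference was 1.50 ± 0.29 (adjusted p = 0.00539). *FOX2* (C4QUZ8, chromosome 1, 29840 to 30607), described as the multifunctional enzyme of the same pathway, started alike on both, at 8.317 and 7.965 on glycerol and 8.546 and 8.393 on glucose. It rose to 40.9, 40.94, 43.63 and 45.31 on glycerol and to 18.3 and 20.48 on glucose, with no overlap, and the difference was -1.15 ± 0.12 (adjusted p = 2.07e-05). In the list of methanol use and peroxisomal beta-oxidation, which does not hold C4R343, 2 of 10 genes were lower on glucose, *FOX2* and *PEX2*, none was higher and 8 were not called (median -0.36). By the thresholds for single changes, 2 of the 10 rose on glycerol, 2 rose on glucose and 1 fell on glucose. Among those not called, *SPS19* went from 19.93 and 18.54 to 6.849 and 4.371 RPKM on glucose. *POX1* went from 11.69 and 11.22 to 7.977 and 8.339 there. *PEX2* (-0.76, adjusted p = 0.0067) was not called with the course to pH 8.2 (-0.37, adjusted p = 0.359) or with both glycerol courses at 0 min (-0.58, adjusted p = 0.0763). *AOX1*, the alcohol oxidase gene of methanol use, stood at 5.306 and 3.936 RPKM on average at 0 min on glycerol and glucose and at 7.813 and 4.119 at 15 min (difference -0.43, adjusted p = 0.403).

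General stress and storage genes gave 4 lower and no higher calls among 13 (median -0.44). These were *TMA10*, *RGI2*, *TMA17* and the aldose reductase gene *GRE3*. *TMA17* rose by 2.41 on glycerol and 1.13 on glucose (difference -1.28 ± 0.30, adjusted p = 0.0169) and *GRE3* had a difference of -0.54 (adjusted p = 0.019). Each of these calls was lost without 5 single libraries (adjusted p = 0.0562 to 0.0647 and 0.054 to 0.0861). *HSP12*, a membrane-stabilising stress protein gene, rose by 4.42 and 3.47 without passing the test of the difference (-0.95 ± 0.44, adjusted p = 0.218). In the ATO family of membrane proteins, described as exporters of ammonia, 2 of 4 genes were lower and none was higher (median -0.91). *ATO2* (C4R1C0) rose by 1.38 on glycerol and 0.43 on glucose (difference -0.95 ± 0.14, adjusted p = 0.000558), and *ATO1* by 1.85 and 0.93 (difference -0.92, adjusted p = 0.0407). The *ATO1* call was lost without 8 single libraries (adjusted p = 0.0601 to 0.153) and with both glycerol courses at 0 min (-0.73, adjusted p = 0.142). Among 19 genes of sulfate assimilation, methionine and cysteine, 2 were lower, the regulator gene *MET4* (-0.90 ± 0.20, adjusted p = 0.0111) and the S-adenosylmethionine synthetase gene *SAM2* (-0.69 ± 0.13, adjusted p = 0.00539). The median of that list was -0.36, and it was -0.64 with replicates 1 and 2 of glycerol at 15 min alone and -0.01 with replicates 3 and 4 alone. *MET4* was not called without glycerol 0 min replicate 2 or glucose 15 min replicate 2 (-0.85 to -0.76, adjusted p = 0.0641 to 0.0683). With the course to pH 8.2 neither was called, *MET4* at -0.62 (adjusted p = 0.186) and *SAM2* at -0.23 (adjusted p = 0.607).

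In 6 lists no gene was called in either direction. Among 13 heat shock proteins and co-chaperones, 12 fell by at least 1 on glycerol and 11 on glucose (median difference 0.27). *SSA4* of the Hsp70 family changed by -4.13 on glycerol and -4.19 on glucose. Arginine synthesis and breakdown (8 genes, median difference -0.16), thiamine and vitamin B6 (11, -0.07), the endoplasmic reticulum and secretory entry (11, 0.16), the respiratory chain (16, -0.25) and iron-sulfur enzymes and their assembly (11, -0.31) made up the rest. A difference that misses the threshold does not show that the 2 responses were equal. The plot of the gene lists gives the difference of each member.

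**Figure D4:**
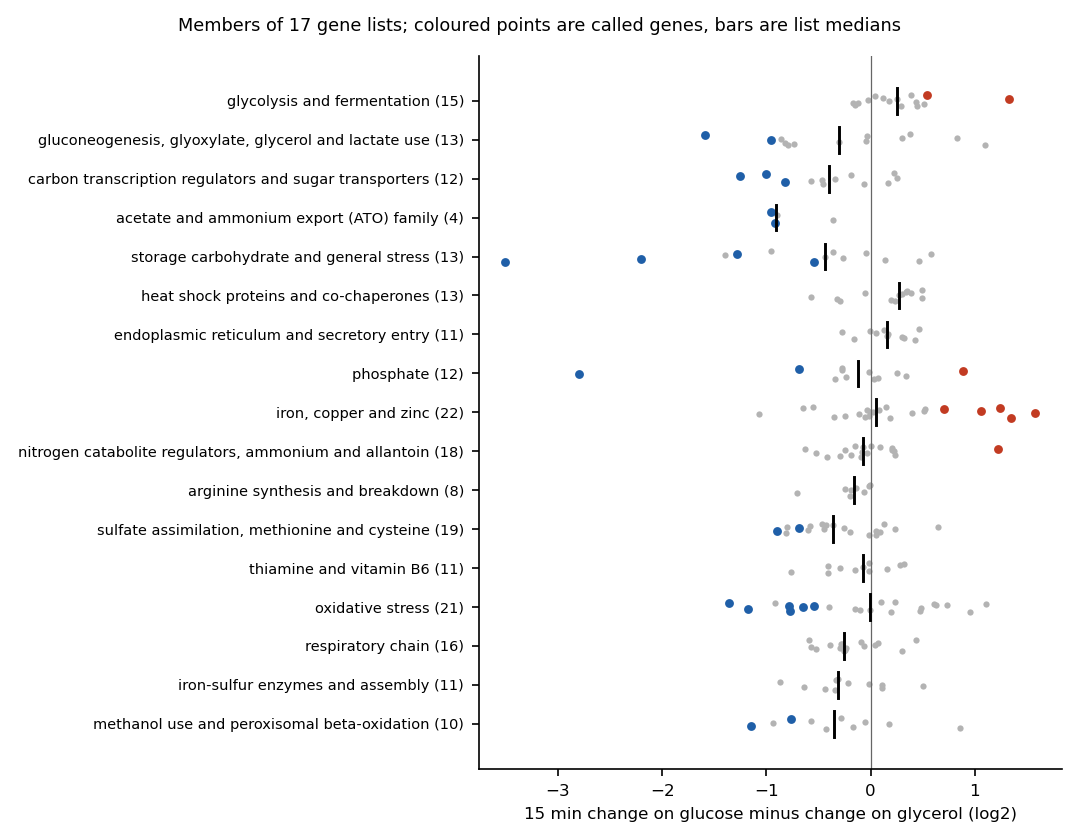
Difference between the 15 min change on glucose and on glycerol (x axis, log2) for each member of 17 gene lists (rows, with the number of genes tested); red and blue points are genes called higher and lower on glucose, grey points were not called, and black bars are list medians. Called genes of iron, copper and zinc all lie to the right, and those of general stress, oxidative stress and glycerol use all lie to the left.

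The later times were looked at as group means, with no test, because they share the libraries at 0 min. *PDC1* stood at 685.6 RPKM on glycerol and 1875 on glucose at 30 min, and at 713.8 and 1297 at 60 min. *FRE2* (C4R7S4) was at 15.78 on both carbon sources at 30 min and at 27.4 and 28.45 at 60 min, so that the early rise on glucose was followed by like levels. *FET3* was at 235.4 on glycerol and 124.7 on glucose at 60 min, with the order of the levels turned against 15 min. *PIC2* remained lower on glucose, at 17.19 RPKM against 27.59 at 30 min and at 25.35 against 35.68 at 60 min. *FOX2* was at 37.13 and 21.47 at 30 min and at 17.8 and 16.96 at 60 min.

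**Figure D5:**
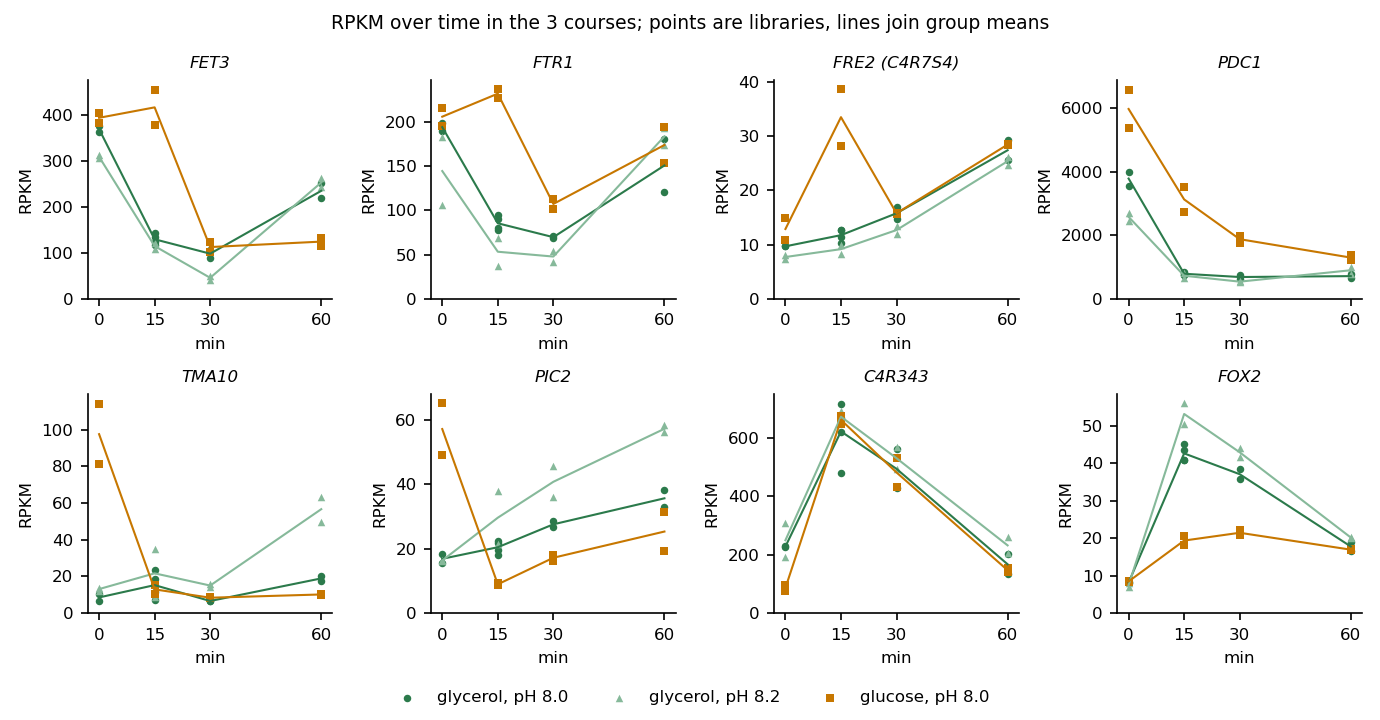
RPKM (y axes, from 0) of 8 genes at 0, 15, 30 and 60 min (x axes) in the glycerol courses to pH 8.0 and pH 8.2 and the glucose course to pH 8.0; points are libraries and lines join group means. *FET3* and *FTR1* fall by 15 min on glycerol and by 30 min on glucose, and *PDC1* stays higher on glucose at each time.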

How the data were processed

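RNA was sequenced from *K. phaffii* X-33 in 26 libraries of 12 groups. The authors deposited RPKM values per gene and library. The table's own log2 fold change and p-value columns hold the study's tests and were not used. Values were analysed as log2(RPKM + 1) for genes with at least 1 RPKM in 2 libraries. All 26 libraries entered 1 fit of group means in limma 3.58.1 (R 4.3.3), with a trend in the variance and Benjamini-Hochberg adjustment within each comparison. Adjusted p-values are from that fit, or, where a text names another choice of libraries, from the same model refitted on it. The procedure was also tested on simulated data. Differences of changes were called at an adjusted p below 0.05. Single changes and levels also needed an unadjusted p below 0.01 and a size of 1. The 12 called genes with the highest and the 12 with the lowest difference were named, and any member of a list could be. Members and lists were chosen with earlier results of these data known. Of 10 planned keyword lists, 5 found genes, at most 3 each, so none was used, because the annotation at hand describes only some genes. Coordinates are those of RefSeq. Alternatives were other pseudocounts, filters, scaling, replicate blocks, glycerol libraries and leaving out each library.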

Additional observations from a re-analysis of the deposited data

Results flagged for a closer look

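The 24 genes named by the rule on size were singled out because their 15 min change differed between glucose and glycerol by the limma test of that difference. Higher on glucose were *YMR244W* (1.63), *FET3* (1.58), C4R343 (1.50), C4R8M1 (1.42), *FTR1* (1.35), *PDC1* (1.32), *MCM3* (1.25), *FRE3* (1.24), *GAT1* (1.22), *MCM5* (1.08), *FRE2* (C4R7S4, 1.06) and C4R974 (1.06), all on the log2 scale. Lower on glucose were *TMA10* (-3.51), *PIC2* (-2.80), C4R922 (-2.20), *RGI2* (-2.20), C4QXV2 (-2.02), C4R2I5 (-1.99), C4R7M8 (-1.96), *SKO1* (-1.85), C4R5J4 (-1.82), *TIP1* (-1.74), C4QW56 (-1.67) and *STL1* (C4R6F4, -1.59).

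In 3 of these genes the highest of the 4 glycerol libraries at 15 min stood far from the others. The gap to the next library took up 0.831 of the range for *MCM3*, 0.886 for C4R974 and 0.875 for *STL1* (C4R6F4), past the 95% limit of a test by Dixon for 4 values. Chance gives about 1 such case in 20 groups. In *MCM3* and C4R974 that library was replicate 3, and in *STL1* it was replicate 4.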

How the results depend on the processing

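Against 105 genes higher and 197 lower on glucose, the counts were 164 higher with median ratio scaling and 178 higher with the 10 libraries alone. They were 32 and 112 with 4 glycerol libraries at time zero, 44 and 99 without replicates 1 and 2 of glycerol at 15 min, and 27 and 63 with the glycerol course to pH 8.2. At a difference of at least 1 they were 14 and 34. With a replicate block they were 200 and 374. Same-numbered libraries had deviations with a correlation of 0.27 on glucose and -0.04 on glycerol. By the library codes, the glycerol partners at 15 min are replicates 3 and 4 instead, and these gave -0.005. The main fit took no libraries as pairs. With a block of cultures read from the codes, 292 genes were called, and 215 of these were among the 302. A block could not be fitted for levels between carbon sources. The share of higher calls was 42.5% with median ratio scaling. Genes lower on glucose at 15 min numbered 17 with a pseudocount of 5. Leaving out 1 library gave 27 to 147 higher and 65 to 251 lower differences, 154 to 164 rises and 117 to 133 falls on glycerol, 109 to 131 and 132 to 147 on glucose, 46 to 59 higher and 11 to 21 lower levels at 0 min, and 35 to 39 and 25 to 29 at 15 min. Of 1057 alternative values for 46 named or called list genes, 920 kept direction and call, 137 kept direction only and 0 reversed. The alternatives reuse libraries that called these genes, which makes a reversal unlikely. Groups of 2 libraries limit the precision, and the cause of these shifts was not tested.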
